A study of Saccharomyces cerevisiae with 7 samples.

Results

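The *PAU* genes, the *DAN* genes and the *TIR* genes of budding yeast code for wall mannoproteins that cells make when oxygen is scarce. The members described here are *PAU1* to *PAU24*, *DAN1*, *DAN4* and *TIR1* to *TIR4*, taken by name, and all 30 were found among the 6225 systematic names on the array. The set was selected on these same array intensities, since the genes were known to be high in MTS-GFP and NES-GFP, so their values are a description and no test was made on them. The 24 *PAU* genes are near-identical copies whose probes may read each other's RNA, and they are set beside the 6 *DAN* and *TIR* genes throughout.

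Wall mannoproteins are secreted proteins that carry mannose chains and form the outer layer of the yeast wall. In air the main ones include the products of *CWP1* and *CWP2*, and without oxygen cells replace them with the Dan and Tir proteins. In air the *DAN* and *TIR* genes are held off by repressors such as Rox1 and Mot3 and by the Tup1 and Cyc8 co-repressor, and the zinc-cluster factor Upc2 switches them on when oxygen, heme or sterol runs low. The *PAU* genes are the largest gene family of this yeast and code for small serine-poor relatives of the Tir proteins. Most of them lie near chromosome ends.

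The study asked what limits the amount of a GFP that cells can carry when the protein is sent to a given place or is folded or degraded in a given way. Each strain was BY4741, a laboratory strain, with a multicopy plasmid that holds *URA3* and a weak *LEU2* allele, grown to log phase in medium without uracil, and each was measured on 1 array of total RNA. MTS-GFP carried a mitochondrial targeting signal, SS-GFP a secretion signal, and GFPm3 was a misfolding mutant, all 3 under *PYK1pro*. NES-GFP carried a nuclear export signal under *HXT7pro*. GFP and GFP-Deg, a GFP with a degron, were under *TDH3pro*. The control carried the empty vector.

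The promoter therefore differs between many of the constructs along with the signal. MTS-GFP, SS-GFP and GFPm3 share *PYK1pro*, and GFP and GFP-Deg share *TDH3pro*. MTS-GFP, NES-GFP, GFPm3 and the empty vector lay on slide 1, and GFP, GFP-Deg and SS-GFP on slide 2, so that slide and construct cannot be told apart in any comparison across the slides. Comparisons of MTS-GFP, NES-GFP and GFPm3 with the empty vector are within slide 1. With 1 array per strain, no value has a replicate error and no p-value is given. Values are scaled intensities, with the 75th percentile of each array set to 1000, or log2 differences, and a gene is counted as changed when it differs by over 2-fold.

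On the 7 arrays, between 97.0% and 98.9% of yeast spots were well above background, 0 were saturated, and the 75th percentile of the deposited intensity lay between 3719 and 5626 units. All 30 members were well above background on all 7 arrays. Each had 7 spots on an array, of which at least 6 were kept once outlier spots were left out. The SD of log2 intensity between the spots of a probe, pooled over the members, was 0.05, with single values between 0.01 and 0.12. This SD is a technical one, from spots on the same array, and tells nothing of how cultures or labelling reactions vary. *HIS3* and *MET15*, which BY4741 lacks, were well above background on 0 arrays. *URA3*, carried by the plasmid, deviated from the mean of the 7 arrays by -1.28 in MTS-GFP, 0.32 in NES-GFP and -1.48 in GFPm3, against 1.88 in the empty vector, on the log2 scale, and its part in the values below was not tested.

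The members were highest with MTS-GFP and, *TIR1* and *TIR2* aside, next highest with NES-GFP. RNA of a whole culture was measured, so that fewer cells with a transcript and less of it per cell cannot be told apart. MTS-GFP gave the highest of the 7 values for 30 of the 30 members, as it did for 16.7% of all genes. MTS-GFP was highest and NES-GFP second for 28 of the 30, against 8.55% of all genes, and the exceptions were *TIR1* and *TIR2*. GFP-Deg gave the lowest value for 25 of the 30, against 16.3% of all genes. The ratio of the highest to the lowest array had a median of 12.1 over the *PAU* genes and of 14.8 over the *DAN* and *TIR* genes, against 1.69 over all genes.

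*DAN1*, named for delayed anaerobic expression, varied most. It had scaled intensities of 1639.9 in MTS-GFP, 1263 in NES-GFP, 618 in GFPm3, 61.2 in SS-GFP, 14.7 in GFP-Deg and 7.03 in GFP, against 356 in the empty vector. The ratio of its highest to its lowest array was 233, which placed it at rank 3 of all genes. In MTS-GFP it was 4.60 times its level in the empty vector, and in NES-GFP 3.54 times. Its values on slide 2 were low in absolute terms, and the difference of GFP from the empty vector, -5.66 on the log2 scale, was -4.32 after normexp background correction with quantile normalization and -6.15 after quantile normalization alone.

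*DAN4*, the gene next to *DAN1* on the chromosome, had scaled intensities of 2324 in MTS-GFP, 1499 in NES-GFP, 1054 in GFPm3, 400.2 in SS-GFP, 225 in GFP and 183 in GFP-Deg, against 397 in the empty vector. It was 5.85 times the empty vector in MTS-GFP and 3.77 times in NES-GFP. Although the genes adjoin, the deviations of *DAN1* and *DAN4* from their own means differed by up to 3.14 on the log2 scale, in GFP. *DAN4* in SS-GFP lay 0.01 from the empty vector, where *DAN1* lay 2.54 below it.

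*TIR4* and *TIR3* code for wall mannoproteins that cells need to grow without oxygen. *TIR4* had scaled intensities of 3904 in MTS-GFP, 2227 in NES-GFP, 598 in GFPm3, 124 in GFP, 102 in SS-GFP and 96.8 in GFP-Deg, against 219 in the empty vector. With 17.9 times the empty vector in MTS-GFP and 10.2 times in NES-GFP, it changed most of the 30 members in both comparisons. *TIR3* had scaled intensities of 6241 in MTS-GFP, 4267 in NES-GFP, 2183 in GFPm3, 541 in SS-GFP, 476 in GFP-Deg and 361 in GFP, against 1559.6 in the empty vector. It stood at 4.0 times the empty vector in MTS-GFP, 2.74 times in NES-GFP and 0.232 times in GFP.

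*TIR1* and *TIR2*, which are also known as cold-shock genes, varied least. *TIR1* had scaled intensities of 14411 in MTS-GFP, 10694 in GFPm3, 10478 in NES-GFP, 6109.5 in GFP, 5451 in GFP-Deg and 5053 in SS-GFP, against 6647 in the empty vector. MTS-GFP was 2.17 times the empty vector, while the ratios for GFPm3 (1.61) and NES-GFP (1.58) were under 2. *TIR2* had scaled intensities of 5272 in MTS-GFP, 4577 in GFP, 4249 in GFP-Deg, 4178 in NES-GFP, 3424 in SS-GFP and 3089.9 in GFPm3, against 2569.6 in the empty vector. It was the sole *DAN* or *TIR* gene whose lowest array was the empty vector, and its ratio of highest to lowest array was 2.05. The rank of this ratio among all genes was 781 for *TIR1* and 1854 for *TIR2*, while it was 6 for *TIR4*.

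**Figure D1:**
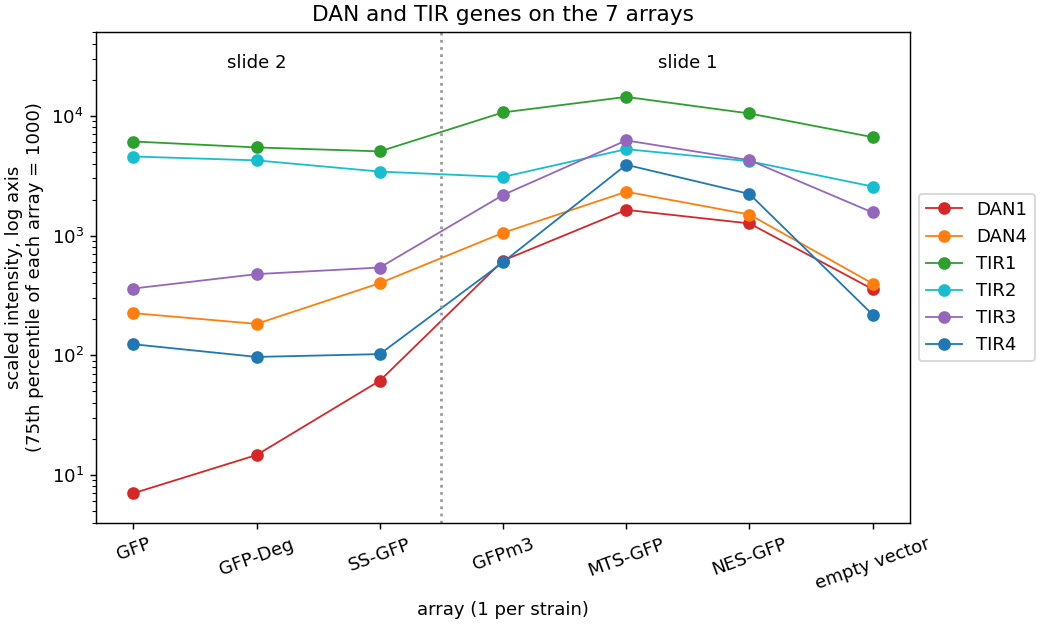
Scaled intensity of the 6 *DAN* and *TIR* genes (log axis, 75th percentile of each array set to 1000) on the 7 arrays, 1 point per gene and array, with lines joining the points of a gene as a guide and a dotted line between the slides. *DAN1* spans 7.03 in GFP to 1639.9 in MTS-GFP, while *TIR2* stays between 5272 in MTS-GFP and 2569.6 in the empty vector, and the heights of different genes are not comparable.

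The *PAU* genes are represented by the copies with the highest, the middle and the lowest deviation in MTS-GFP and NES-GFP. *PAU22*, the highest on both arrays, had scaled intensities of 6217 in MTS-GFP, 4676 in NES-GFP, 1093 in GFPm3, 418 in GFP, 381 in SS-GFP and 319 in GFP-Deg, against 649 in the empty vector. *PAU14*, next to the median on both arrays together with *PAU1* in MTS-GFP and *PAU10* in NES-GFP, had 6519 in MTS-GFP, 4494 in NES-GFP, 1629.9 in GFPm3, 700.1 in SS-GFP, 671 in GFP and 539 in GFP-Deg, against 1112 in the empty vector. *PAU20*, the lowest on both, had 1790.2 in MTS-GFP, 1291 in NES-GFP, 564 in GFPm3, 559 in SS-GFP, 442 in GFP and 339 in GFP-Deg, against 769 in the empty vector. All 3 copies were highest in MTS-GFP, second in NES-GFP and lowest in GFP-Deg, and *PAU20* differed in that GFPm3 lay below the empty vector.

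*PAU1* had scaled intensities of 6606 in MTS-GFP, 4577 in NES-GFP, 1666 in GFPm3, 708 in SS-GFP, 696 in GFP and 542 in GFP-Deg, against 1118 in the empty vector. *PAU10* had 5103 in MTS-GFP, 3465 in NES-GFP, 1267 in GFPm3, 539 in SS-GFP, 533 in GFP and 427 in GFP-Deg, against 858 in the empty vector. *PAU1*, *PAU10* and *PAU14* had the same order of arrays.

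Of the 24 *PAU* genes, 16 shared 1 order from high to low: MTS-GFP, NES-GFP, GFPm3, empty vector, SS-GFP, GFP and GFP-Deg. Another 6 differed from it in the exchange of GFP and SS-GFP, *PAU20* in the exchange of GFPm3 and the empty vector, and *PAU17* more widely. *PAU17*, singled out after its values were seen, had scaled intensities of 1808 in MTS-GFP, 1292 in NES-GFP, 517 in GFP, 383 in GFPm3, 323 in SS-GFP and 309 in GFP-Deg, against 266 in the empty vector. It was the sole *PAU* gene with its lowest value in the empty vector and the sole one with GFP above GFPm3. For the other 23, every array of slide 1 lay above every array of slide 2, as it did for 4 of the 6 *DAN* and *TIR* genes and for 12.4% of all genes.

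**Figure D2:**
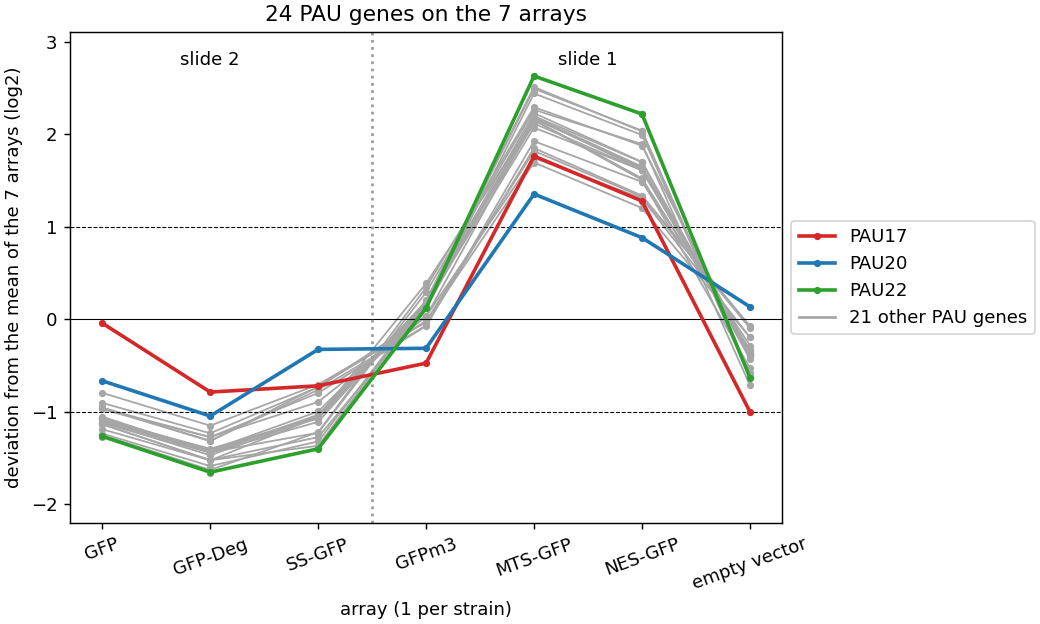
Deviation of each of the 24 *PAU* genes from its own mean over the 7 arrays (log2), with lines joining the points of a gene as a guide, dashed lines at 2-fold and a dotted line between the slides. The copies run together with medians of 2.17 in MTS-GFP and 1.62 in NES-GFP, while *PAU17* lies near its mean in GFP (-0.04) and *PAU20* has the smallest rise in MTS-GFP (1.35).

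In MTS-GFP, 24 of 24 *PAU* genes were over 2-fold higher than in the empty vector, against 5.77% of all genes, with a median log2 difference of 2.56, that is 5.90-fold. The lowest was *PAU20* at 1.22 and the highest *PAU22* at 3.26. All 6 *DAN* and *TIR* genes were over 2-fold higher too, with a median of 2.10. Their values spread more widely, with 4.16 for *TIR4*, 2.55 for *DAN4*, 2.20 for *DAN1*, 2.0 for *TIR3*, 1.12 for *TIR1* and 1.04 for *TIR2*, and the SD between members was 1.14 for these 6 genes and 0.50 for the *PAU* genes. Among the 50 of 6225 genes with the greatest increase in MTS-GFP over the empty vector, 18 were *PAU* genes and 2 were *DAN* or *TIR* genes. The set was selected as high in MTS-GFP, and near-identical *PAU* copies may count the same RNA more than once.

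In NES-GFP, 23 of 24 *PAU* genes were over 2-fold higher than in the empty vector, against 3.31% of all genes, with a median log2 difference of 2.03. *PAU20*, at 0.75, was the exception. Of the *DAN* and *TIR* genes, 4 of 6 were over 2-fold higher, with 3.35 for *TIR4*, 1.92 for *DAN4*, 1.82 for *DAN1* and 1.45 for *TIR3*, while *TIR2* (0.70) and *TIR1* (0.66) were not. Under the alternative without scaling between arrays, in which the median of all genes itself lay 0.33 above the empty vector, *TIR2*, *TIR1* and *PAU20* all exceeded 2-fold. *TIR1* also did with normexp and quantile normalization (1.05), where that median lay at -0.03, and it stood at 0.97 with quantile and 0.96 with loess normalization.

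Both comparisons share the empty vector array, so the likeness of their values is not independent. Set directly against each other, MTS-GFP exceeded NES-GFP for 30 of the 30 members, against 47.3% of all genes, by 0.34 (*TIR2*) to 0.81 (*TIR4*) on the log2 scale. The median was 0.49 for the *PAU* genes and 0.50 for the *DAN* and *TIR* genes. None of the 30 was over 2-fold higher, against 1.14% of all genes, and with 1 array each it is not known whether such a difference would recur.

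**Figure D3:**
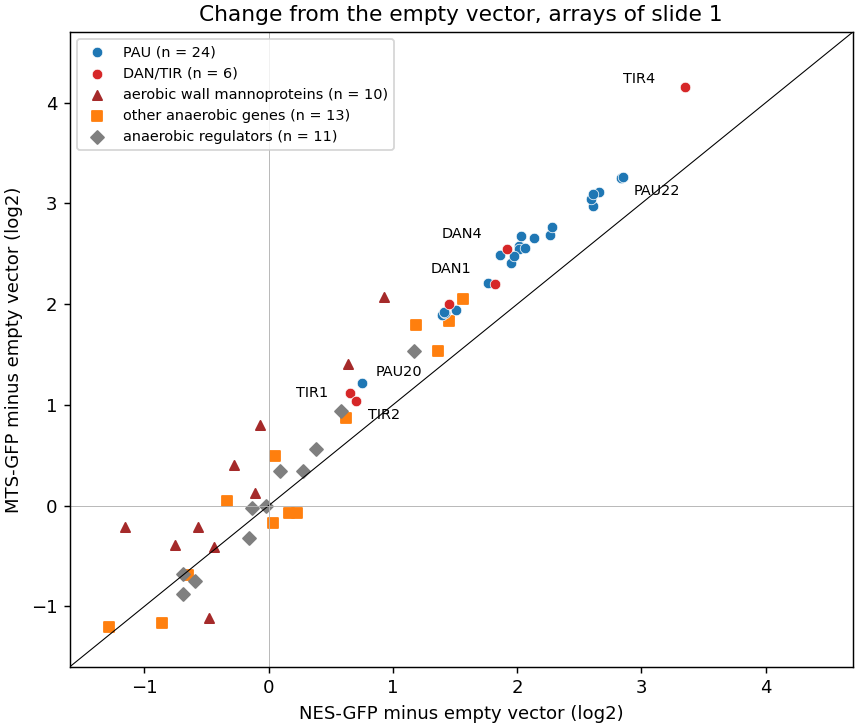
Log2 difference of MTS-GFP from the empty vector against that of NES-GFP from the empty vector, 1 point per gene, for the *PAU* and *DAN* or *TIR* genes and for 3 other gene lists, with the line of equal values. All 30 members lie above the line, with *TIR4* at 4.16 and 3.35 and *PAU20* at 1.22 and 0.75, and both axes use the same empty vector array.

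GFPm3 shares its promoter with MTS-GFP and lay on the same slide. Against GFPm3, 24 of 24 *PAU* genes were over 2-fold higher in MTS-GFP, against 4.58% of all genes, with a median log2 difference of 2.0. Of the *DAN* and *TIR* genes, 4 of 6 were, with a median of 1.27, and *TIR1* (0.43) and *TIR2* (0.77) were not, nor was *DAN4* without scaling. NES-GFP exceeded GFPm3 by over 2-fold for 24 of 24 *PAU* genes, against 2.22% of all genes, with a median of 1.49, but for only 2 of 6 *DAN* and *TIR* genes, *TIR4* (1.90) and *DAN1* (1.03), joined by *TIR3* without scaling. *TIR1* stood at -0.03 here, but at 0.21 after quantile normalization. The median over these 6 genes was 0.74.

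GFPm3 itself differed less from the empty vector. Of the *PAU* genes, 23 of 24 lay above the empty vector, against 55.9% of all genes, with a median of 0.55, and 1, *PAU7* (1.01), passed 2-fold, against 3.37% of all genes. That call was lost with quantile normalization (0.99), with normexp and quantile normalization (0.97) and with the median of the spots (0.98), while 7 *PAU* genes passed without scaling. All 6 *DAN* and *TIR* genes lay above it, with a median of 0.74, and *TIR4* (1.45) and *DAN4* (1.41) passed 2-fold, joined by *DAN1* without scaling. The values for the others were 0.79 for *DAN1*, 0.69 for *TIR1*, 0.48 for *TIR3* and 0.27 for *TIR2*.

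The arrays of slide 2 lay below the empty vector, a comparison in which slide and construct cannot be told apart. In GFP-Deg, 17 of 24 *PAU* genes were over 2-fold lower than in the empty vector, against 1.51% of all genes, with a median of -1.04, as were *DAN1* (-4.60), *TIR3* (-1.71), *TIR4* (-1.18) and *DAN4* (-1.12). This *PAU* count depended on the processing, with 9 after quantile normalization, 8 after normexp with quantile normalization and 21 without scaling between arrays. In GFP, 0 of 24 *PAU* genes were over 2-fold lower, against 1.17% of all genes, with a median of -0.69, but 5 were without scaling. *DAN1* (-5.66) and *TIR3* (-2.11) were over 2-fold lower, joined by *DAN4* and *TIR4* without scaling. In SS-GFP, 0 of 24 *PAU* genes were over 2-fold lower, against 1.29% of all genes, with a median of -0.67, and *DAN1* (-2.54), *TIR3* (-1.53) and *TIR4* (-1.10) were, the last of them not with normexp and quantile normalization. *PAU17* and *TIR2* went the other way on all 3 arrays, with *PAU17* at 0.96 in GFP, 0.21 in GFP-Deg and 0.28 in SS-GFP, and *TIR2* at 0.83 in GFP, 0.73 in GFP-Deg and 0.41 in SS-GFP.

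Within slide 2, GFP-Deg and GFP share a promoter. GFP-Deg lay below GFP for 24 of 24 *PAU* genes, against 50.3% of all genes, with a median of -0.36 and the lowest value, -0.74, for *PAU17*. Of the *DAN* and *TIR* genes, 4 of 6 lay below GFP in GFP-Deg, with a median of -0.14. *DAN1* was over 2-fold higher in GFP-Deg (1.06), as were 1.53% of all genes, but the difference was 0.36 after normexp background correction with quantile normalization. SS-GFP lay within 0.34 above and 0.68 below GFP for the *PAU* genes, with a median of 0.04. *DAN1* was 3.12 above GFP on the log2 scale in SS-GFP, where 0.948% of all genes were over 2-fold higher, and *DAN4* was 0.83 and *TIR3* 0.58 above it. *TIR1* (-0.27), *TIR2* (-0.42) and *TIR4* (-0.27) lay below GFP there, and the median over the 6 genes was 0.15. With normexp and quantile normalization *DAN1* was 2.15 above GFP in SS-GFP.

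The mean over all arrays can stand in for the control as the reference. Compared with the mean of the 7 arrays, 24 of 24 *PAU* genes and 4 of 6 *DAN* and *TIR* genes were over 2-fold higher in MTS-GFP, against 2.76% of all genes. In NES-GFP these counts were 23 of 24 and 4 of 6, against 1.16% of all genes. In GFP-Deg 23 of 24 *PAU* genes were over 2-fold lower than this mean, against 1.22% of all genes, in GFP 16, against 0.916%, and in SS-GFP 15, against 0.739%. The mean holds the same 7 arrays, so high values in MTS-GFP and NES-GFP lower the deviations of the others. Against the mean of slide 1 alone, 23 of 24 *PAU* genes and 3 of 6 *DAN* and *TIR* genes were over 2-fold higher in MTS-GFP, against 1.91% of all genes, but 4 of 24 and 1 of 6 in NES-GFP, against 0.209%.

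The *PAU* probes can be compared by how far their deviations differ from each other on any of the 7 arrays. Over the 276 pairs of *PAU* genes, the largest such difference had a median of 0.39 on the log2 scale, against 2.17 over the 15 pairs of *DAN* and *TIR* genes and 1.25 between a *PAU* gene and a *DAN* or *TIR* gene. For 9 pairs it was under the spot SD of 0.05 on every array. *PAU21* and *PAU22* differed by at most 0.0083. *PAU1*, *PAU9*, *PAU10* and *PAU14* were not separable from each other at that limit, nor were *PAU6* and *PAU18*, nor *PAU12* and *PAU24*. Counted this way, the 24 copies gave 18 separable traces, and a median taken over 1 copy of each was 2.61 in MTS-GFP and 2.05 in NES-GFP over the empty vector. The number of traces rests on this limit, which holds spot error alone. *PAU1* and *PAU24*, for example, counted as separable with a largest difference of 0.052. It is therefore not a number of separate measurements.

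Complete-linkage clustering of these differences, in which every pair within a set differs by at most a limit, gave 3 sets and 2 single genes at a limit of 0.4, set after the values were seen. Pairs from different sets could also differ by less than this limit, so the sets are not sharply bounded. *PAU3*, *PAU5*, *PAU7*, *PAU15*, *PAU19*, *PAU21* and *PAU22* stood at 2.68 to 3.26 in MTS-GFP over the empty vector and at 0.73 to 1.01 in GFPm3. *PAU1*, *PAU2*, *PAU9*, *PAU10*, *PAU12*, *PAU13*, *PAU14*, *PAU16*, *PAU23* and *PAU24* stood at 2.41 to 2.68 in MTS-GFP and at 0.49 to 0.72 in GFPm3. *PAU4*, *PAU6*, *PAU8*, *PAU11* and *PAU18* stood at 1.89 to 2.21 in MTS-GFP and at 0.01 to 0.23 in GFPm3. The order of the 3 sets was the same in NES-GFP, with 2.27 to 2.85 for the first, 1.86 to 2.13 for the next and 1.40 to 1.77 for the last. *PAU17* and *PAU20* joined no set. No probe sequence was used here, so whether copies of a set differ in RNA or share RNA that binds each other's probes was not tested.

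**Figure D4:**
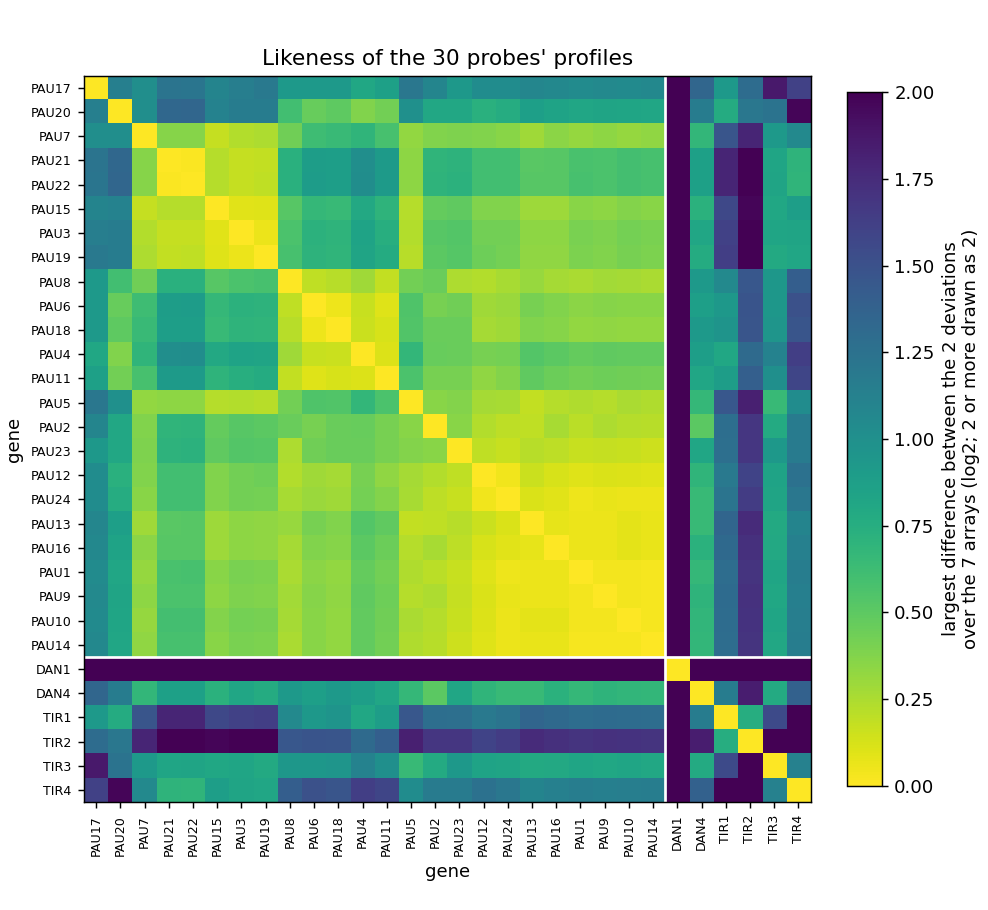
Largest difference between the deviations of 2 genes over the 7 arrays (colour, log2, values of 2 or more drawn as 2) for every pair of the 30 members, with *PAU* genes ordered by likeness and *DAN* and *TIR* genes last. *PAU21* and *PAU22* (0.0083) and the group of *PAU1*, *PAU9*, *PAU10* and *PAU14* lie near 0, whereas the median was 2.17 between *DAN* and *TIR* genes.

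Over the 7 arrays, which share the slides and so are not independent points, the *PAU* profiles correlated with each other with a median Pearson r of 0.996, and *PAU17* with the other copies with r between 0.828 and 0.915. The *TIR4* profile was close to the *PAU* profiles (median r 0.994), as were those of *TIR3* (0.958), *DAN4* (0.952), *TIR1* (0.929) and *DAN1* (0.875). The *TIR2* profile was not (median r 0.349), and between *DAN1* and *TIR2* r was -0.12. The *DAN1* deviation differed from that of each *PAU* gene by at least 3.25 on some array, whereas that of *DAN4* came within 0.51 of the nearest copy on every array.

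*TIR4*, *TIR2* and *AUS1* follow each other on the chromosome. *AUS1* codes for a transporter that takes up sterol when oxygen is absent. In MTS-GFP over the empty vector *TIR4* stood at 4.16, *TIR2* at 1.04 and *AUS1* at 1.83, so that the gene in the middle moved least.

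Most *PAU* genes lie near chromosome ends, and the array gives the chance to see whether genes beside them moved as well. In the current annotation, used for gene order only, 15 of the 24 had 3 or fewer protein-coding genes between them and the nearest chromosome end, while *PAU7* had 14, *PAU2* 29, *PAU17* 38, *PAU5* 45 and *PAU23* 99, and the other 4 had 4 to 6. In MTS-GFP the median log2 difference from the empty vector was 2.56 for the *PAU* genes and 0.28 for the 42 measured genes next to them, of which 5 were over 2-fold higher, where 5.77% of all genes were. These were *ERR3* (1.43), *ERR1* (1.27) and *ERR2* (1.22), which code for enolase-related proteins, *ARN2* (1.21), a siderophore transporter, and *PXP3* (1.06). *ERR1* and *ERR2* had scaled intensities of 91.0 and 90.5 in MTS-GFP. Those of *ERR3* (19.5 against 7.24 in the empty vector) and *PXP3* (33.2 against 15.9) were lower still, so their differences rest on low values. Whether neighbours of the same gene family are separate measurements was not tested, so the counts of neighbours may count the same RNA more than once. In NES-GFP the medians were 2.03 for the *PAU* genes and 0.36 for their neighbours, where 3.31% of all genes were over 2-fold higher. Of the 41 neighbours well above background on all 7 arrays, 4 were over 2-fold higher in NES-GFP, *YIR042C* (2.10), *ARN2* (1.23), *PXP3* (1.21) and *YLR460C* (1.05). The other neighbour, *YGL262W*, was not well above background in the empty vector, and no fold is given for it. In GFP and GFP-Deg, where *PAU15* lay below the empty vector (-0.53 and -0.92), *YIR042C* beside it lay above (4.50 and 3.49). These arrays lay on the other slide from the empty vector. *YIR042C* had a scaled intensity of only 3.53 in the empty vector, so all its differences, also that in NES-GFP, rest on a low value.

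*PAU2*, *PAU5*, *PAU7* and *PAU23*, which lie away from the ends, stood between 2.49 (*PAU2*) and 2.98 (*PAU7*) in MTS-GFP over the empty vector, within the range of the copies near the ends. *PAU17*, also away from the ends, stood at 2.76. It lies between *HSP104* and *SSA2*, both genes of protein chaperones, of which *HSP104* stood at 0.60 and *SSA2* at -1.05 in MTS-GFP.

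**Figure D5:**
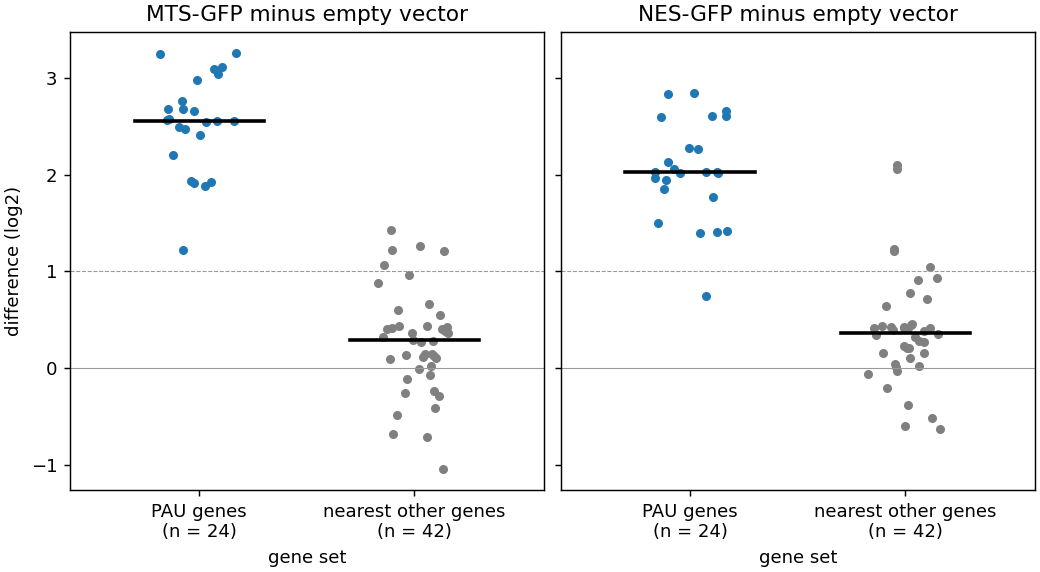
Log2 difference from the empty vector of the 24 *PAU* genes and of the 42 measured genes next to them, in MTS-GFP (left panel) and NES-GFP (right panel), 1 point per gene, with bars at the medians and a dashed line at 2-fold. The points include *YGL262W*, which was not well above background in the empty vector, and the medians are 2.56 and 0.28 in MTS-GFP and 2.03 and 0.36 in NES-GFP.

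A list of anaerobic regulators held *UPC2*, *ECM22*, *SUT1*, *SUT2*, *ROX1*, *MOT3*, *HAP1*, *TUP1*, *CYC8*, *MGA2* and *SPT23*. Of these 11 regulators, 1 was over 2-fold higher than the empty vector in MTS-GFP, against 5.77% of all genes. In NES-GFP 1 was, against 3.31% of all genes, and the medians were 0.00 in MTS-GFP and -0.02 in NES-GFP. Both times it was *SUT1*, a factor for sterol uptake, with scaled intensities of 1260.4 in MTS-GFP, 979 in NES-GFP, 1136 in GFPm3, 550.2 in SS-GFP, 541 in GFP and 457 in GFP-Deg, against 435 in the empty vector. *SUT1* stood at 1.53 in MTS-GFP, 1.17 in NES-GFP and 1.39 in GFPm3 over the empty vector.

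*UPC2*, the activator, had scaled intensities of 609 in MTS-GFP, 475 in NES-GFP, 451 in GFPm3, 194 in SS-GFP, 147 in GFP and 133 in GFP-Deg, against 317 in the empty vector. It did not pass 2-fold over the empty vector in MTS-GFP (0.94) or NES-GFP (0.58), but its order of arrays was the one that 16 *PAU* genes share, and it deviated from the mean of the 7 arrays by 1.09 in MTS-GFP and -1.11 in GFP-Deg. Across the slides, 2 of the 11 regulators were over 2-fold lower than the empty vector in GFP, *UPC2* (-1.11) and *MGA2* (-1.21), against 1.17% of all genes. In GFP-Deg 3 were, *UPC2* (-1.26), *MGA2* (-1.53) and *HAP1* (-1.31), against 1.51% of all genes. *ROX1*, the repressor, had 250.4 in MTS-GFP, 209 in NES-GFP, 280.0 in GFPm3, 178 in SS-GFP, 169 in GFP and 132 in GFP-Deg, against 197 in the empty vector, and its differences from the empty vector were 0.35 in MTS-GFP and 0.09 in NES-GFP.

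Of 13 other genes known for expression without oxygen, 4 were over 2-fold higher and 2 over 2-fold lower in MTS-GFP than in the empty vector, against 5.77% and 2.46% of all genes. *PDR11*, which like *AUS1* codes for a sterol transporter, had scaled intensities of 526 in MTS-GFP, 376 in NES-GFP, 245 in GFPm3, 125 in GFP-Deg, 62.2 in SS-GFP and 52.9 in GFP, against 127 in the empty vector. *AUS1* had 2191 in MTS-GFP, 1683 in NES-GFP, 907 in GFPm3, 581 in SS-GFP, 570.0 in GFP and 537 in GFP-Deg, against 614 in the empty vector. These transporter genes and *ANB1*, an anaerobic form of the translation factor eIF5A (1.79 in MTS-GFP, 1.18 in NES-GFP), and *CYC7*, the second cytochrome c (1.53 in MTS-GFP, 1.37 in NES-GFP), were the 4 that rose, in both strains. *OLE1*, the fatty acid desaturase, was lower in both (-1.21 in MTS-GFP, -1.29 in NES-GFP), and *AAC3*, an anaerobic ADP/ATP carrier, was lower in MTS-GFP (-1.17) with -0.86 in NES-GFP. In GFP-Deg, on the other slide, *AAC3* lay 1.24 above the mean of the 7 arrays and 0.83 above the empty vector. *OLE1* was lower than the empty vector in GFP (-1.64), GFP-Deg (-1.56), SS-GFP (-1.54) and GFPm3 (-1.41) as well. The heme synthesis gene *HEM13* stood at 0.49 in MTS-GFP and 0.05 in NES-GFP, and *COX5B*, an oxygen-repressed subunit of cytochrome c oxidase, at 0.87 in MTS-GFP and 0.62 in NES-GFP. *FET4*, an iron transporter gene, stood at 0.04 in MTS-GFP and -0.34 in NES-GFP, and was over 2-fold lower in GFPm3 (-1.36). *AAC3* (-1.09) and *HMG2* (-1.04) were over 2-fold lower in GFPm3 as well.

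Taken as a list, the wall mannoprotein genes of aerobic cells did not share the pattern of the *PAU*, *DAN* and *TIR* genes. Of 10, 2 were over 2-fold higher in MTS-GFP than in the empty vector, *PIR3* (2.07) and *SPI1* (1.41), against 5.77% of all genes, and 1 was lower, *TIP1* (-1.12), against 2.46%, with a median of -0.04. In NES-GFP 0 were higher and 1 was lower, *CWP2* (-1.15), against 1.14% of all genes, with a median of -0.36. In GFP all 10 lay above the empty vector, where the median of all genes lay at 0.03. Over 2-fold higher were 3, *SED1* (1.30), *CWP2* (1.18) and *CWP1* (1.07), against 4.48% of all genes. GFP and the empty vector lay on different slides, so slide and construct cannot be told apart here. *SED1* stood at 0.80 in MTS-GFP and -0.07 in NES-GFP, and *CWP1* at 0.40 in MTS-GFP and -0.28 in NES-GFP. *PIR3* shared the pattern in part. It was highest in MTS-GFP and lowest in GFP-Deg, and stood at 0.93 in NES-GFP and 1.04 in GFPm3 over the empty vector. *SPI1* was also highest in MTS-GFP, but lowest in GFPm3.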

How the data were processed

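Total RNA of 7 strains, 1 culture each, was labelled with Cy3 and hybridized to Agilent yeast oligo arrays. The authors used a SureScan scanner and quantified the spots with Feature Extraction 10.10.1.1. The deposited intensity of each spot had been corrected for background and trend, on a linear scale, without normalization between arrays. The series table held the same values for all 45209 spots. The methods name the agilp package but no normalization step.

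Control spots and outlier spots (252 to 373 per array) were left out. log2 was taken, the 75th percentile of the array subtracted, and averages taken over spots of the same probe, then over probes that share a name, with Python 3.11.15, pandas 2.3.3 and numpy 2.4.6. Of the 6225 names, 5737 matched the RefSeq R64 gene table, used for names and gene order only, since the array was designed on another build. Alternatives used limma 3.58.1 in R 4.3.3. On simulated data for 6225 names, 200 of 200 changed genes were recovered. The changes put in were all well past 2-fold and the noise was that between spots alone. The simulation therefore checks the arithmetic and says nothing of calls near 2-fold or of how cultures and slides vary.

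The members and gene lists were chosen with earlier results of these data known. Values on every array were given for the *DAN* and *TIR* genes, for the *PAU* genes with the highest, median and lowest deviation in MTS-GFP and NES-GFP, and for *UPC2*, *SUT1*, *ROX1*, *AUS1* and *PDR11*. Other listed genes were named where they passed 2-fold from the mean of the 7 arrays, and some where they passed it against the empty vector, and the 10 other genes most correlated with the mean of the *DAN* and *TIR* genes were named too. *HSP150*, on the list of wall genes, was not analysed here. With 1 array per strain, no test was made.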

Additional observations from a re-analysis of the deposited data

How the results depend on the processing

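Of 82 values recomputed under the alternatives, 55 moved by less than the spot SD or stayed within 1.5 times the count, and 27 moved further. Of the medians, 0 changed sign, while the counts among the 82 cannot change sign. For the median of the *PAU* genes in MTS-GFP over the empty vector (2.56 on the log2 scale), quantile normalization gave 2.74, loess 2.69, normexp background correction followed by quantile normalization 2.69, no scaling between arrays 2.68, and as the reference in place of the empty vector the mean of the 7 arrays gave 2.17 and the mean of the same slide 1.28. For the *DAN* and *TIR* genes in MTS-GFP (2.10) these were 2.20 with quantile, 2.15 with loess, 2.16 with normexp and quantile, 2.22 without scaling, 2.44 with the mean of the other 6 arrays and 1.01 with the same-slide mean. For the *PAU* genes in NES-GFP (2.03) they were 2.15 with quantile, 2.13 with loess, 2.10 with normexp and quantile, 2.38 without scaling, 1.62 with the mean of the 7 arrays, 1.89 with the mean of the other 6 and 0.74 with the same-slide mean. For the *DAN* and *TIR* genes in NES-GFP (1.64) they were 1.71 with quantile, 1.99 without scaling, 1.5 with the mean of the 7 arrays, 1.75 with the mean of the other 6 and 0.46 with the same-slide mean. The means of a slide hold the array itself, which draws such values toward 0. Of the 23 *PAU* genes over 2-fold above the mean of the 7 arrays in NES-GFP, a 3-fold threshold left 15 and the mean of the same slide counted 4, and for the *DAN* and *TIR* genes that mean counted 1 in place of 4. Without scaling, the median of all genes lay above the empty vector by 0.33 in NES-GFP and 0.09 in MTS-GFP. Taken over 1 copy of each separable *PAU* trace, an alternative chosen after seeing the data, the median was 2.61 in MTS-GFP and 2.05 in NES-GFP. The restriction to members well above background removed none, so its values, counted among the 55, could not move. Leaving out a replicate was not possible with 1 array per strain, and no model with slide as a block could be fitted. No paired analysis was possible because no strain has more than 1 array. The SD between spots is the only error known here, and how cultures, labelling and hybridization vary was not tested.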

Other observations

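Among 530 genes outside the set that passed 2-fold on an array, the 10 whose profile over the 7 arrays was most like the mean of the *DAN* and *TIR* genes were *TSA2* (Pearson r 0.99), *YMR317W* (0.98), *YSR3* (0.98), *UPC2* (0.98), *SET4* (0.97), *PRM4* (0.96), *FHN1* (0.96), *RRT1* (0.95), *FIT3* (0.95) and *GCV1* (0.95). The 7 arrays share 2 slides, and genes that differ between the slides also correlate with each other. *TSA2* codes for a thioredoxin peroxidase, and it stood at 2.12 in MTS-GFP and 1.59 in NES-GFP over the empty vector. *YMR317W* stood at 3.42 in MTS-GFP and 2.71 in NES-GFP. *FIT3*, a gene of a wall mannoprotein that holds iron siderophores, stood at 2.10 in MTS-GFP and 2.07 in NES-GFP, and *SET4*, a gene of a SET domain protein, at 1.62 in MTS-GFP and 1.22 in NES-GFP. *GCV1*, a gene of the glycine cleavage system, stood at 0.52 in MTS-GFP and 0.57 in NES-GFP, and passed 2-fold over the empty vector in neither. The mean of the *PAU* genes had r of 0.97 with the mean of the *DAN* and *TIR* genes.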
